A study of Mus musculus with 24 samples.

Results

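A group of 10 genes of myelin and of the cells that make it was examined: Mbp, Mog, Mag, Mobp, Cnp, Ugt8a, Plekhb1, Sox10, Olig1 and Olig2, which are 10 of the 23827 autosomal genes with curated RefSeq transcripts. They were chosen by name, and for each the window ran from 5000 bp upstream of the outermost transcription start to the end of the gene on mm10. Methylation was available as levels of 100 bp tiles. Of the 343 tiles of these windows that appeared in at least 1 tissue table, 290 were present in the tables of all 3 tissues, of 758685 such tiles in all. These 290 shared tiles are described here, 48 of them upstream, 52 at promoters and 190 in gene bodies.

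Oligodendrocytes are the glia of the brain and spinal cord that wrap axons in myelin, a stack of membrane that speeds conduction. The transcription factors Olig1, Olig2 and Sox10 set up and maintain the lineage, and the differentiated cell then makes large amounts of a few membrane proteins and galactolipids. DNA methylation is the addition of a methyl group to cytosine, in mammals mostly where it is followed by guanine (CpG). Stretches dense in CpGs at gene starts are commonly unmethylated in every tissue, while scattered CpGs in and between genes are mostly methylated and can lose methylation in cells that use the region.

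The libraries were made by reduced representation bisulphite sequencing (RRBS), which reads the CpGs near restriction sites, from untreated C57BL/6J mice of both genders at 24 weeks of age. There were 12 liver libraries from the caudal part of the left lobe (6 males and 6 females), 6 brain libraries from a slice at the rostral end and 6 heart libraries from a slice at the apex (3 males and 3 females each). By their mouse numbers the brains and hearts came from mice whose livers were also used, so the tissues share animals, and the test below treats the libraries as independent. However, 2 of these mouse numbers carry one gender in the liver labels and the opposite gender in the brain and heart labels, so that the match of animals and the gender counts rest on labels in conflict. The columns of the tables carry running numbers that match no mouse. Males and females are therefore not separated here, and a brain library is named only by its number in the table.

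A level is the fraction of methylated calls in a tile, from 0 to 1. More than 10 reads lay behind each level, but the depth itself is unknown, so that no interval on a single level can be given. Each level is an average over all cells of a piece of tissue, and fewer cells of a type and less methylation change per cell cannot be told apart. In the 3 tissues the mean over all shared tiles ranged from 0.648 to 0.661 in liver, 0.637 to 0.664 in brain and 0.596 to 0.603 in heart, and no library repeated another. At genes that mark hepatocytes, 32 of 74 tiles (43.2%) were lower in liver than in both other tissues, against 2.0% of all shared tiles. At cardiomyocyte genes 33 of 205 (16.1%) were lower in heart than in both, against 2.22% of all. Endothelial genes had a larger share lower in heart, 25 of 105 tiles (23.8%). Brain library 1 stood apart: its mean correlation with the heart libraries was 0.92, against 0.88 to 0.90 for the other 5. At 227 tiles where heart was at 0.2 or less and the mean of the other 5 brain libraries at 0.8 or more, its median level was 0.629, against 0.829 to 0.860 in the other 5. The mean of library 1 over the tiles of the cardiomyocyte genes was 0.678, against 0.725 to 0.742 in the other 5. The counts, gene levels and tiles with the largest differences are also given without library 1, while further tiles are given with all 6 brain libraries only.

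Sequences of tiles that carry the tissue differences described next are shown on the plus strand of mm10, from RefSeq, for 5 of the genes. Each CpG that lies wholly within a tile is in capitals, since methylation was read at CpGs only. CpGs are marked and counted from the reference sequence, and which of them were read in a tile is unknown. A CpG cut by the edge of a tile is counted but not capitalised, as at the last base of the Cnp tile and the first of the Sox10 tile. The 2 Olig1 tiles lie upstream of the gene in no annotated exon or intron, the Mag and Mobp tiles lie in introns, the Cnp tile in coding exon 2 of 4, and the Sox10 tile upstream of Sox10. The Olig2 tile, also upstream, is shown as an example of the CpG-dense stretches that were unmethylated in all 3 tissues.
Olig1 chr16:91266201-91266300: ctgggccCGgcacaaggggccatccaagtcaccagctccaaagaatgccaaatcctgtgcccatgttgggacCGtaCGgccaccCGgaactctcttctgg
Olig1 chr16:91266401-91266500: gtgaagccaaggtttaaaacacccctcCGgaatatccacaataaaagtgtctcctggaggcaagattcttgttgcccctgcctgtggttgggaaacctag
Sox10 chr15:79165901-79166000: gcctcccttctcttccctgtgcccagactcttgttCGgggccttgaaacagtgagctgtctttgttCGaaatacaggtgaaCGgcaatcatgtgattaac
Mag chr7:30910001-30910100: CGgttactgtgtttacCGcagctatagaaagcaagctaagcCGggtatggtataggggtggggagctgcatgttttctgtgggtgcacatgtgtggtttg
Cnp chr11:100576301-100576400: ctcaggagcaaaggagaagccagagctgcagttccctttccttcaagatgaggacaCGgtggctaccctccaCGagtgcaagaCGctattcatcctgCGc
Mobp chr9:120166001-120166100: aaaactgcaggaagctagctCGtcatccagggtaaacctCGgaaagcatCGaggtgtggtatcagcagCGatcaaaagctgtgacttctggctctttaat
Olig2 chr16:91222601-91222700: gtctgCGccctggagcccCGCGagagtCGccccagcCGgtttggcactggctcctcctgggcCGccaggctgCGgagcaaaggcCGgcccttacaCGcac

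Across the 10 genes, brain was the tissue with the lower levels when set against liver. A tile was called between 2 tissues when limma over all 758685 shared tiles gave an adjusted p of 0.01 or less and the tissue means differed by at least 0.3. By this rule 32 of the 290 tiles, in 6 genes, were lower in brain than in liver, which is 11% against 3.50% of all shared tiles. Only 2 tiles were higher in brain than in liver, 0.69% against 3.68% of all. Between brain and heart the counts were small and ran both ways. There 5 tiles were lower in brain, 1.72% against 1.08% of all, and 6 were higher, 2.07% against 4.79%. Heart was lower than liver at 13 tiles, 4.48% against 5.49% of all, and higher at 1 tile, 0.345% against 2.35%. The shares for heart against liver and for tiles lower in brain than in heart thus lay near or below those of all tiles.

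**Figure D1:**
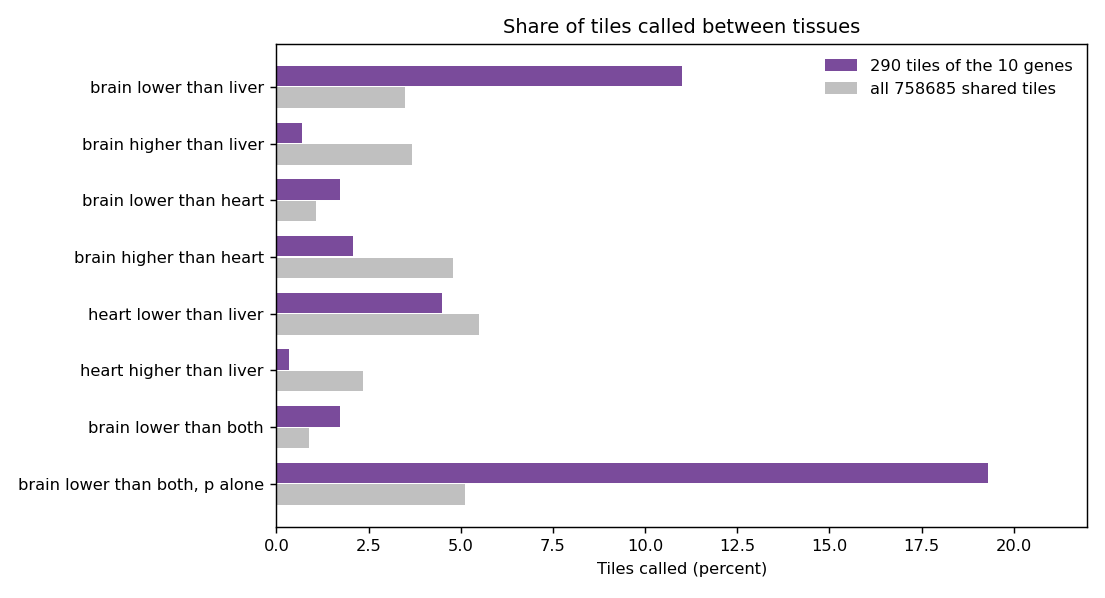
The bars give the percent of tiles called between tissues among the 290 tiles of the 10 genes (purple) and among all 758685 shared tiles (grey), for each direction. Tiles lower in brain than in liver make up 11% of the tiles of the 10 genes and 3.50% of all tiles, and the lowest bars, by adjusted p alone with no minimum difference, 19.3% and 5.11%.

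In 5 of the 290 tiles, 3 in Mbp and 2 in Olig1, brain was lower than both liver and heart, or 1.72% against 0.875% of all shared tiles. Without the minimum difference of 0.3, by adjusted p alone, this count was 56 in 9 genes, or 19.3% against 5.11% of all, with 22 tiles in Mbp, 9 in Sox10, 7 in Cnp, 5 each in Mog and Mobp, 4 in Mag, 2 in Olig1 and 1 each in Plekhb1 and Ugt8a. That version of the rule was added after the levels had been seen. Its p-values use a spread pooled over the tissues, although the median spread of these tiles was widest in brain. By adjusted p alone, 14 tiles were higher in brain than in both, 4.83% against 7.98% of all, and 12 of them lay in Mbp. No tile of the 10 genes was higher in brain than in both by limma with the minimum difference, against 0.799% of all tiles, while at an unadjusted p under 0.05 in both comparisons 27 were higher (9.31% against 14.9% of all) and 75 lower (25.9% against 8.11%). Liver was higher than both other tissues at 8 tiles, 2.76% against 1.24% of all. Without brain library 1, 6 tiles were lower in brain than in both with the minimum difference and 55 by adjusted p alone, and 35 tiles in place of 34 were called between brain and liver and 14 in place of 11 between brain and heart.

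With no test, 44 of the 290 tiles had 2 tissue means at least 0.3 apart, 15.2% against 13.7% of all shared tiles. Of these, 20 lay in Mbp, 9 in Sox10, 6 in Mag, 4 in Cnp, 3 in Olig1 and 2 in Mobp. The tile closest under this limit was the Plekhb1 tile 1256 bp upstream of the start, with levels of 0.682 in liver, 0.382 in brain and 0.599 in heart. The closest above it was an Mbp intron tile 27127 bp past the outermost start, with 0.787 in liver, 0.833 in brain and 0.533 in heart. By position, 10 of the 48 upstream tiles, 5 of the 52 promoter tiles and 29 of the 190 body tiles were at least 0.3 apart. Tiles with 2 to 4 CpGs reached that distance in 31 of 154 cases, tiles with 5 or more CpGs in 8 of 84 and tiles with 1 CpG in 5 of 52. The median upstream tile had a level of 0.680 in liver, 0.407 in brain and 0.435 in heart, and the median body tile 0.726, 0.592 and 0.636. The median promoter tile was at 0.090, 0.106 and 0.095.

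**Figure D2:**
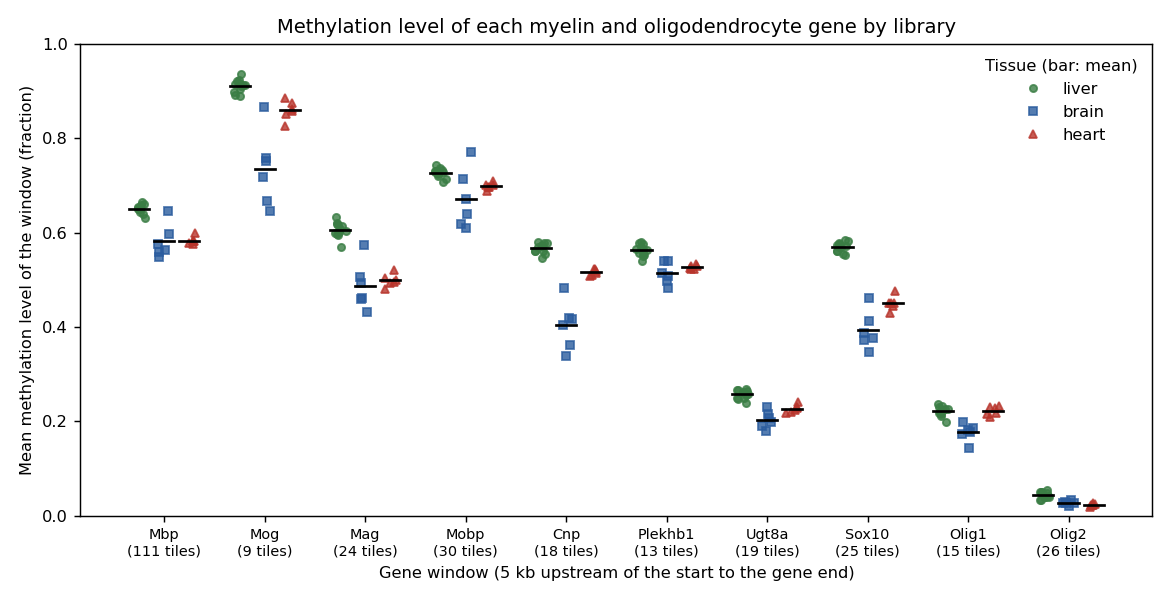
Each point is the mean level over the shared tiles of a gene window in 1 library (12 liver, 6 brain and 6 heart libraries), and black bars are tissue means, with the number of tiles under each gene. Brain points span the widest range at 9 of the 10 genes, as at Mog, where they run from 0.645 to 0.867, and the exception, the Olig2 window, lies under 0.1 in every library. Brain also has the widest range over all shared tiles, which are not drawn.

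The transcription factors are taken first. Olig1 is a basic helix-loop-helix factor of oligodendrocyte maturation, and its gene on chromosome 16 gave 15 shared tiles. The 9 tiles past the start, promoter and body together, had means under 0.1 in all 3 tissues. The promoter level, averaged over 2 tiles, was 0.010 ± 0.007 in liver (SD, n = 12), 0.010 ± 0.006 in brain (SD, n = 6) and 0.010 ± 0.008 in heart (SD, n = 6). The differences of Olig1 lay upstream, at the 2 tiles printed above and at a tile about 1 kb before the start.

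The tile 3519 bp upstream of the Olig1 start, with 4 CpGs, had the largest difference between tissue means among the 290. Its level ran from 0.917 to 0.963 in liver (median 0.942), from 0.262 to 0.530 in brain (median 0.431) and from 0.723 to 0.843 in heart (median 0.798). The 3 tissues did not overlap, with brain lowest and liver highest. Brain was lower than liver by 0.54 (SE 0.03, limma adjusted p = 1.8e-13) and lower than heart by 0.40 (SE 0.03, adjusted p = 2e-09). The printed tile 3319 bp upstream, with 1 CpG, ran from 0.879 to 1.0 in liver (median 0.941), 0.379 to 0.622 in brain (median 0.513) and 0.765 to 0.950 in heart (median 0.859). Every brain library lay below every liver and heart library there too, and the differences were -0.44 from liver (adjusted p = 8e-10) and -0.35 from heart (adjusted p = 5.2e-07). Without brain library 1 the brain means were 0.389 and 0.530, and both tiles stayed called.

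The third Olig1 tile, 1119 bp upstream, went the other way. It ran from 0.087 to 0.217 in liver (median 0.135), from 0.333 to 0.622 in brain (median 0.479) and from 0.364 to 0.474 in heart (median 0.388). Liver lay below both other tissues, while brain and heart overlapped. Brain was higher than liver by 0.33 (SE 0.03, adjusted p = 1.7e-09), and brain and heart were not called apart (difference 0.08, adjusted p = 0.055).

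Olig2, the factor needed to specify oligodendrocytes and motor neurons, has a window on the same chromosome with 26 shared tiles, 25 of them under 0.1 in all 3 tissues. The exception, 2000 bp upstream, had means of 0.103 in liver, 0.085 in brain and 0.037 in heart. The largest difference between tissue means at any Olig2 tile was 0.065. The printed tile 2900 bp upstream, with 9 CpGs, was at 0.053 in liver, 0.021 in brain and 0.023 in heart. The body level was 0.040 ± 0.007 in liver (SD, n = 12), 0.020 ± 0.003 in brain (SD, n = 6) and 0.022 ± 0.003 in heart (SD, n = 6), a difference between brain and liver of -0.02 with an adjusted p of 4.7e-05, far under the difference of 0.1 needed for a call on a gene level.

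Sox10, a high mobility group factor of oligodendrocytes and of neural crest cells such as Schwann cells, had 25 shared tiles on chromosome 15. Its body level was 0.415 ± 0.019 in liver (SD, n = 12), 0.233 ± 0.044 in brain (SD, n = 6) and 0.306 ± 0.013 in heart (SD, n = 6). Brain was called lower than liver (difference -0.18, SE 0.01, adjusted p = 2.9e-12), as was heart (-0.11, SE 0.01, adjusted p = 2e-08). The difference of -0.07 between brain and heart (adjusted p = 8.6e-05) was under the minimum of 0.1. At the promoter, liver stood at 0.221 ± 0.054 (SD, n = 12), brain at 0.171 ± 0.033 (SD, n = 6) and heart at 0.119 ± 0.033 (SD, n = 6), and only heart and liver were called apart (adjusted p = 0.0005).

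Along Sox10 the low brain levels formed 2 groups of neighbouring tiles on either side of the start. Liver had the highest mean at all 25 Sox10 tiles, and the lowest was heart at 13 and brain at 12. The first group lay between 1060 and 1860 bp upstream, where 4 of 8 tiles were called lower in brain than in liver. In the printed tile 1460 bp upstream, liver ran from 0.791 to 0.912 (median 0.861), brain from 0.441 to 0.646 (median 0.526) and heart from 0.750 to 0.830 (median 0.780). Brain lay below both other tissues with no overlap, by 0.32 from liver (adjusted p = 2.8e-11) and by 0.25 from heart. The second group, 3940 to 5240 bp past the start in intron 2 and coding exon 3, held 4 tiles with liver means of 0.724 to 0.808, brain means of 0.412 to 0.462 and heart means of 0.529 to 0.651, all 4 called between brain and liver. Between the groups, the 4 tiles from 640 to 940 bp past the start were under 0.1 in each tissue.

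The Sox10 tile with the largest difference was another one, 2560 bp upstream, where it overlaps the annotated gene Gm10863 and holds 1 CpG. It ran from 0.459 to 0.745 in liver (median 0.661), from 0.229 to 0.627 in brain (median 0.338) and from 0.239 to 0.374 in heart (median 0.247). Heart lay below every liver library and was called (-0.37, SE 0.05, adjusted p = 1.2e-06). Brain overlapped both tissues and was called against neither. The difference of -0.26 from liver (limma adjusted p = 0.00017) was short of the minimum of 0.3. That of 0.12 from heart had an adjusted p of 0.11.

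**Figure D3:**
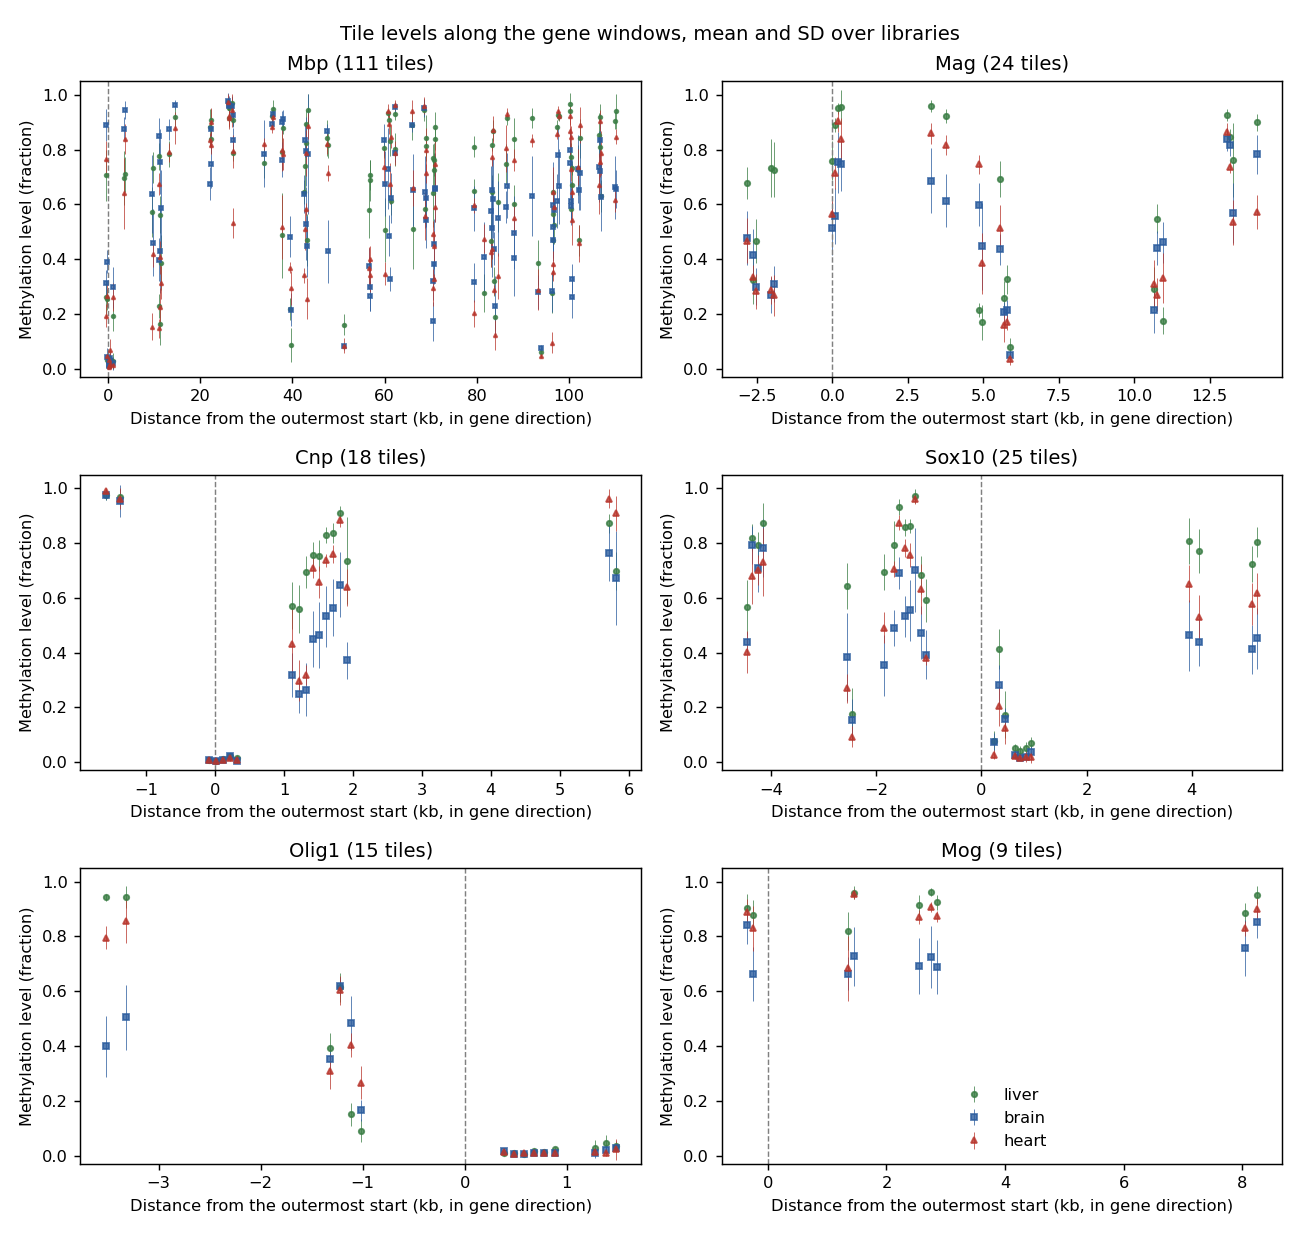
Tile levels (mean, with bars of 1 SD over libraries) against the distance of the tile from the outermost start in the direction of the gene, for 6 genes, with the start as a dashed line. The tiles just past the starts of Mbp, Cnp and Olig1 lie near 0, and brain is the lowest tissue 3519 bp upstream of Olig1 (0.399), in the run of 9 Cnp tiles and at all 9 Mog tiles.

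Among the myelin proteins, Mbp, the basic protein that holds the inner faces of the myelin membrane together, had the longest window and 111 shared tiles on chromosome 18. The gene is a composite: the outermost start gives the longer Golli transcripts, and the starts of the classic myelin protein lie within it, 79340 bp further on. Over its 101 body tiles the level was 0.688 ± 0.010 in liver (SD, n = 12), 0.613 ± 0.038 in brain (SD, n = 6) and 0.619 ± 0.008 in heart (SD, n = 6). The difference of -0.07 between brain and liver had an adjusted p of 3.5e-07 but did not reach 0.1, and brain and heart were not distinguished (-0.01, adjusted p = 0.64). The tiles behind this mean differed in both directions.

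Around the Golli start 5 of the 8 promoter tiles were under 0.1 in all 3 tissues. The tile over the classic start, centred 13 bp before it, was methylated in liver and less so in the other tissues. It ran from 0.579 to 0.706 in liver (median 0.652), from 0.224 to 0.402 in brain (median 0.306) and from 0.115 to 0.254 in heart (median 0.222). Liver lay above both, and heart, not brain, was the lowest tissue. Brain was lower than liver by 0.33 (adjusted p = 3e-10) and higher than heart by 0.11 (adjusted p = 0.0041), the latter short of the minimum difference.

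In introns of Mbp, 3 tiles were lower in brain than in both other tissues. The tile 18113 bp before the classic start, in intron 3 of 6 of a Golli transcript, ran from 0.772 to 0.933 in liver (median 0.828), 0.262 to 0.397 in brain (median 0.321) and 0.577 to 0.771 in heart (median 0.700). Brain was lower than liver by 0.50 (SE 0.03, adjusted p = 5.1e-13) and lower than heart by 0.35 (SE 0.03, adjusted p = 1.1e-08), with no overlap of brain and the rest. Liver and heart reached almost the same level at the tile 18413 bp before the classic start, with 0.865 to 0.945 in liver (median 0.911) and 0.838 to 0.923 in heart (median 0.907), while brain ran from 0.397 to 0.583 (median 0.477). There brain differed from heart by -0.41 (SE 0.02, adjusted p = 1.1e-11), the largest difference of brain below heart among the 290 tiles, and heart from liver by -0.01 (adjusted p = 0.64). The last, in intron 6 and 21242 bp past the classic start, ran from 0.694 to 0.780 in liver (median 0.736), 0.263 to 0.382 in brain (median 0.338) and 0.590 to 0.687 in heart (median 0.649). All 3 stayed called without brain library 1, with brain means of 0.339, 0.470 and 0.318.

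Other Mbp tiles separated liver from both remaining tissues or heart from the rest. The 4 adjoining tiles 8613 to 8913 bp before the classic start had liver means of 0.641 to 0.771, brain means of 0.173 to 0.456 and heart means of 0.295 to 0.493, and all 4 were called lower in brain than in liver. In introns 1 to 3, 5 Mbp tiles were called higher in brain than in heart. The widest of these gaps was 9527 bp past the Golli start, with means of 0.572 in liver, 0.637 in brain and 0.154 in heart.

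Mobp, a small basic protein of compact myelin, had 30 shared tiles on chromosome 9 but none at its promoter. Its body level was 0.695 ± 0.009 in liver (SD, n = 12), 0.629 ± 0.069 in brain (SD, n = 6) and 0.657 ± 0.008 in heart (SD, n = 6), and no pair of tissues was called. The printed tile in intron 2, 16308 bp past the start, was low in heart. It ran from 0.265 to 0.507 in liver (median 0.411), 0.281 to 0.572 in brain (median 0.454) and 0.073 to 0.171 in heart (median 0.105). Heart lay below every other library, liver and brain overlapped, and brain was higher than heart by 0.33 (SE 0.04, adjusted p = 5.3e-07). The other called tile, 14308 bp past the start, was lower in brain (mean 0.600) than in liver (0.900), with heart at 0.851.

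Mog, a glycoprotein on the outer surface of myelin and a classic autoantigen, had 9 shared tiles on chromosome 17. None of them reached a difference of 0.3, yet its body level was called lower in brain than in both other tissues. The body level ran from 0.890 to 0.931 in liver (median 0.917), from 0.632 to 0.865 in brain (median 0.732) and from 0.824 to 0.874 in heart (median 0.866). Liver lay above all others, and brain overlapped heart through library 6, at 0.865, while the other 5 brain libraries lay below every heart library. The differences were -0.19 from liver (SE 0.02, adjusted p = 6.6e-09) and -0.13 from heart (SE 0.02, adjusted p = 1.7e-05). At the promoter brain stood at 0.753 ± 0.073 (SD, n = 6) and liver at 0.892 ± 0.048 (SD, n = 12), which was called (adjusted p = 0.00016), and heart at 0.860 ± 0.048 (SD, n = 6) was called apart from neither. Both Mog promoter tiles were highly methylated, unlike those of Olig1, Olig2 and Ugt8a.

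Mag, an adhesion protein of the myelin layer that faces the axon, had 24 shared tiles on chromosome 7. Its promoter was the one at which all 3 pairs of tissues were called. It ran from 0.831 to 0.939 in liver (median 0.884), from 0.498 to 0.761 in brain (median 0.640) and from 0.703 to 0.808 in heart (median 0.756). Liver lay above both, and brain and heart overlapped. The differences were -0.25 between brain and liver (SE 0.03, adjusted p = 5.3e-08), -0.11 between brain and heart (SE 0.03, adjusted p = 0.0073) and -0.13 between heart and liver (SE 0.03, adjusted p = 0.00024). The body level was 0.538 ± 0.020 in liver (SD, n = 12), 0.491 ± 0.047 in brain (SD, n = 6) and 0.487 ± 0.024 in heart (SD, n = 6), with no call.

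The printed Mag tile, in intron 5 of 11, was the reverse of most: liver was the low tissue. Liver ran from 0.167 to 0.255 (median 0.213), brain from 0.476 to 0.719 (median 0.592) and heart from 0.704 to 0.798 (median 0.747). Brain exceeded liver by 0.38 (SE 0.02, adjusted p = 1.1e-12) and heart exceeded liver by 0.53 (SE 0.02, adjusted p = 4.6e-15). Liver was also the lowest tissue at the adjoining tile (0.169, with brain at 0.447 and heart at 0.385), at a tile 10371 bp past the nearest start (0.175, with brain at 0.461 and heart at 0.331) and, by little, at a tile 2628 bp upstream. In 19 of the 24 Mag tiles liver had the highest mean. At the adjoining tiles 1928 and 2028 bp upstream, liver had means of 0.726 and 0.733, brain 0.310 and 0.268 and heart 0.267 and 0.288, so that brain and heart lay together far below liver. At the tile that holds the outermost start, liver was at 0.759, brain at 0.512 and heart at 0.565, and brain and heart were not distinguished (adjusted p = 0.34). At the next tile, over an inner start, liver was at 0.889, heart at 0.714 and brain at 0.558.

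Cnp encodes the phosphodiesterase of non-compact myelin and had 18 shared tiles on chromosome 11. Its body level was the one with the largest brain difference of the 9 genes that had a body level. It ran from 0.744 to 0.843 in liver (median 0.812), from 0.441 to 0.725 in brain (median 0.576) and from 0.778 to 0.804 in heart (median 0.794). All 6 brain libraries lay below every liver and heart library, while liver and heart overlapped. The differences were -0.23 from liver (SE 0.02, adjusted p = 1e-08) and -0.22 from heart (SE 0.03, adjusted p = 2.8e-07), and heart and liver were not called apart (-0.01, adjusted p = 0.66).

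The low brain levels of Cnp lay mostly in a run of 9 adjoining tiles from 159 to 959 bp past its inner start, across the start of coding exon 2. In these the liver means were 0.560 to 0.910, the brain means 0.248 to 0.648 and the heart means 0.297 to 0.885, and brain was the lowest tissue in each. The heart level changed along the run. At the tile 359 bp past the inner start, liver ran from 0.605 to 0.781 (median 0.706), brain from 0.167 to 0.419 (median 0.246) and heart from 0.260 to 0.367 (median 0.327), so that heart overlapped brain and both lay below liver. In the next tile, printed above, liver ran from 0.686 to 0.851 (median 0.750), brain from 0.318 to 0.626 (median 0.441) and heart from 0.669 to 0.758 (median 0.705), so that heart overlapped liver and lay above brain. Outside the run, brain was also lowest at the tiles 4759 and 4859 bp past the inner start, in coding exon 4. Their brain means were 0.764 and 0.672, with liver at 0.871 and 0.699 and heart at 0.962 and 0.908. The 5 tiles around the outer start had means of 0.022 or less in every tissue. The promoter level of Cnp averages both starts and was 0.293 ± 0.020 in liver (SD, n = 12), 0.147 ± 0.027 in brain (SD, n = 6) and 0.199 ± 0.013 in heart (SD, n = 6), called between brain and liver (adjusted p = 2.1e-11).

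Ugt8a, the galactosyltransferase that makes the main glycolipid of myelin, had 19 shared tiles on chromosome 3, 13 of them under 0.1 in all 3 tissues. Its promoter level was 0.069 ± 0.010 in liver (SD, n = 12), 0.027 ± 0.008 in brain (SD, n = 6) and 0.046 ± 0.008 in heart (SD, n = 6). The difference of -0.04 between brain and liver had an adjusted p of 4.2e-08 and was under the minimum. The body level was 0.466 ± 0.014, 0.399 ± 0.036 and 0.427 ± 0.014 in the same order, and the largest difference at a tile, 598 bp upstream, lay between 0.472 in liver and 0.197 in brain, with heart at 0.341. Plekhb1, a membrane protein with a pleckstrin homology domain, had 13 shared tiles on chromosome 7 and none in its body as defined here. Its promoter level, over 9 tiles, was 0.634 ± 0.019 in liver (SD, n = 12), 0.618 ± 0.020 in brain (SD, n = 6) and 0.611 ± 0.011 in heart (SD, n = 6), with no call.

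**Figure D4:**
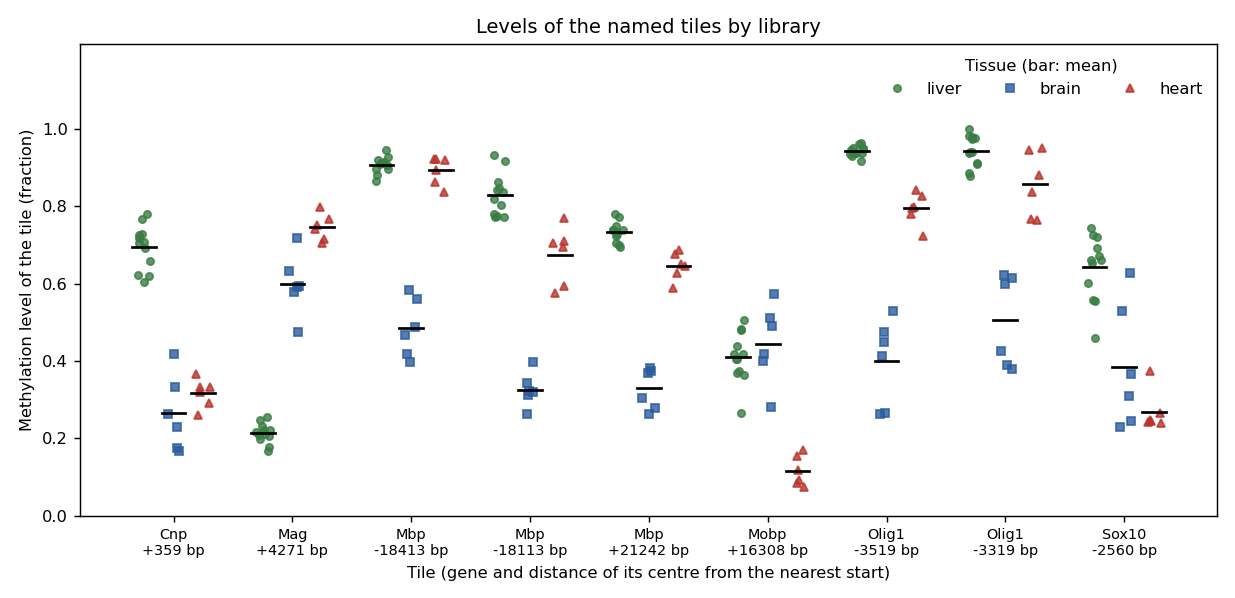
Levels of the 9 tiles with the largest differences of their gene or lower in brain than in both other tissues, 1 point per library, with tissue means as black bars. Brain lies below every liver and heart library at the 3 Mbp and 2 Olig1 tiles, liver is lowest at Mag (mean 0.214) and heart at Mobp (mean 0.115).

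On gene levels, 4 of the 9 genes with promoter tiles were called between at least 1 pair of tissues, against 15.9% of 16977 genes tested. Of the 9 genes with a body level, 3 were called, against 36.7% of 16840 genes. Brain was lower than liver at the promoters of Mag, Mog and Cnp, against 4.59% of all genes, and in the bodies of Cnp, Mog and Sox10, against 8.48%. Brain was lower than heart at the Mag promoter, against 1.60% of all genes, and in the bodies of Cnp and Mog, against 1.85%. Heart was lower than liver at the promoters of Mag and Sox10, against 7.80%, and in the body of Sox10, against 19.7%. Brain was lower than both other tissues at the Mag promoter, against 1.24% of all genes, and in the bodies of Cnp and Mog, against 1.33%. Genes are few here, and the shares carry no test. Without brain library 1 each of these gene levels was called between the same tissues: the promoter differences of brain from liver were then -0.26 at Mag, -0.15 at Mog and -0.15 at Cnp, and the body differences -0.23 at Cnp, -0.19 at Mog and -0.18 at Sox10. Of the tiles in the plot of levels by library, those of Cnp (-0.41 from liver), Mag (0.39 from liver) and Mobp (0.36 from heart) also stayed called without it, and that of Sox10 stayed uncalled for brain.

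At 9 of the 10 genes the window means of the 6 brain libraries spanned a wider range than those of liver or heart, and several genes had the same order of brain libraries. Olig2 was the exception, with a range of 0.012 in brain and 0.023 in liver. Brain also had the widest range over all shared tiles, 0.0271 against 0.0128 in liver and 0.0074 in heart. The share of all genes with the widest range in brain was not computed. The median SD over the brain libraries was 0.0668 in the tiles of the 10 genes against 0.0461 in all shared tiles, while in liver it was 0.0426 against 0.0445 and in heart 0.0388 against 0.0434. The window mean of Mog ran over a range of 0.222 in brain, against 0.046 in liver and 0.058 in heart, and 0.187% of 18726 genes with at least 5 tiles had a brain range as large. For Mobp the brain range was 0.161 (1.03% of genes), for Cnp 0.145 (1.63%), for Mag 0.143 (1.77%), for Sox10 0.113 (4.38%) and for Mbp 0.098 (7.1%). Ugt8a, Olig1, Plekhb1 and Olig2 had brain ranges of 0.013 to 0.057, as large as in 27.9% or more of all genes.

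Brain library 6 had the highest window mean in 8 of the 10 genes, against 33.9% of all genes, and library 3 the lowest in 7 of 10, against 13.6%. Both held in 7 of the 10 genes and in 6.26% of all. From low to high the brain libraries were ordered 3, 4, 5, 1, 2 and 6 at Mog, Mag, Mobp and Sox10 alike. Over 1033 tiles of 35 other genes of myelin and oligodendrocytes the order was the same, with means of 0.503 in library 3 and 0.567 in library 6, where liver ranged from 0.565 to 0.578. Gene by gene this order was less common there: of 33 such genes with at least 5 tiles, library 6 was highest in 26 (78.8%) and library 3 lowest in 8 (24.2%), with both in 8. Over the tiles of the neuron genes the order was 5, 1, 6, 2, 3 and 4, and over all shared tiles 1, 5, 3, 4, 2 and 6. Over the 290 tiles library 3 had a mean of 0.425 and library 6 of 0.522, against 0.651 and 0.664 over all shared tiles. Over the astrocyte genes the order was 3, 4, 5, 1, 6 and 2, from 0.550 in library 3 to 0.587 in library 2. It differed from that of the other myelin genes only in the last 2 places. What part the cell makeup of each brain slice or the gender of the mice has in this order was not tested, since the libraries could not be given a mouse. Without library 6, 50 tiles in place of 34 were called between brain and liver, and without library 3, 28 were.

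**Figure D5:**
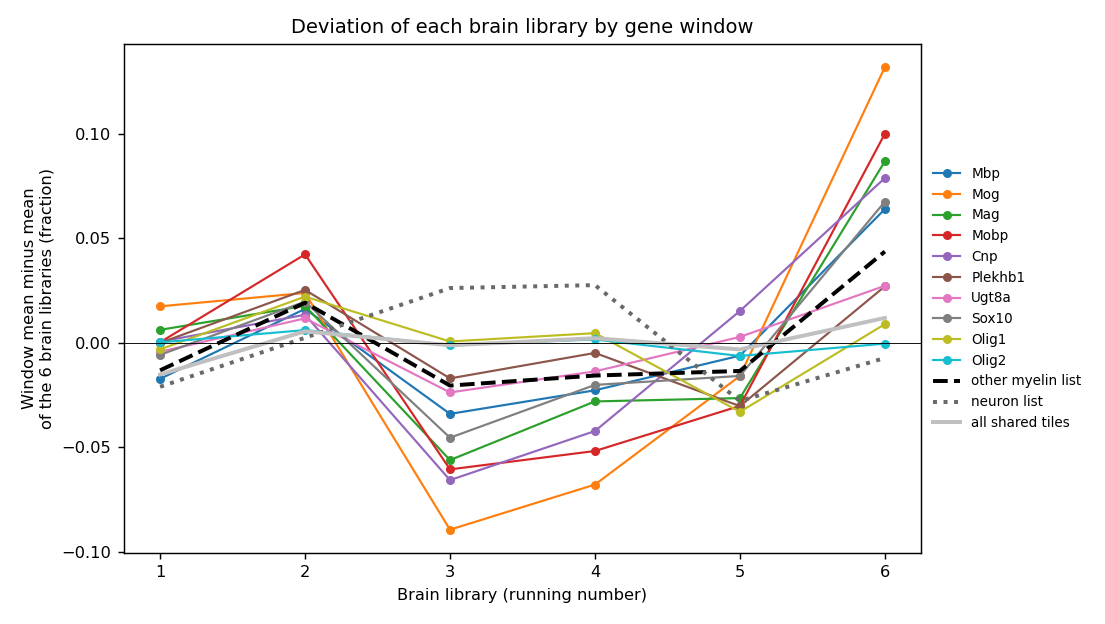
Window mean of each gene in each of the 6 brain libraries, less the mean of the 6, with lines that only join the points of a gene or list; the black dashed line gives the other myelin and oligodendrocyte genes, the dotted line the neuron genes and the grey line all shared tiles. Library 6 is highest and library 3 lowest at 7 of the 10 genes, and the neuron genes follow another order.

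In the other 35 genes of myelin and oligodendrocytes with tiles, 23 of 1033 tiles in 13 genes were lower in brain than in both other tissues, or 2.23%, and 121 by adjusted p alone, or 11.7%. Gpr37, a receptor of oligodendrocytes, Sirt2, a deacetylase found in myelin, and Tspan2, a tetraspanin of myelin, led with 3 tiles each, of 19, 46 and 18. Among marker genes of the other cell types a brain slice can hold, 8 of 556 neuron tiles (1.44%) were lower in brain than in both, 7 of them in Rbfox3, which encodes the neuronal marker NeuN, and 1 in Camk2a. Of 173 astrocyte tiles 2 were (1.16%), in the water channel gene Aqp4 and the glutamate transporter gene Slc1a2. No tile of the microglia, endothelial and Schwann cell genes was called so by limma with the minimum difference, while at an unadjusted p under 0.05 in both comparisons 3 of 50, 1 of 105 and 6 of 138 were lower in brain and 5, 26 and 26 higher. In that order the shares were 6.0%, 0.952% and 4.35% lower, against 8.11% of all shared tiles, and 10%, 24.8% and 18.8% higher, against 14.9%. By adjusted p alone, 21 astrocyte tiles (12.1%) and 40 neuron tiles (7.19%) were lower in brain than in both, against 5.11% of all tiles. At the unadjusted p, 27 astrocyte and 67 neuron tiles were lower (15.6% and 12.1%), and 26 and 81 were higher (15.0% and 14.6%). Of 4 tiles of the heart muscle gene Nppa, 2 were lower in brain than in both. The shares called with the minimum difference stand beside 0.875% of all shared tiles.

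Ranked by the share of their tiles lower in brain than in both, the 3 leading genes of 15384 with at least 10 shared tiles were Lrrc4, a synaptic adhesion protein (12 of 16 tiles), Vxn (6 of 12) and Scd2, a fatty acid desaturase of brain (8 of 19). Olig1 came at rank 88 with 2 of 15 tiles, and Mbp at rank 1394 with 3 of 111. Of all ranked genes, 85.3% had none.

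The 5 tiles lower in brain than in both shared a feature that the choice of genes did not use: each held the motif CCGG, the cut site of an enzyme common in RRBS, counting both strands of this palindrome. It was present in 65.2% of the 290 tiles, in 58.1% of all shared tiles and in 63.3% of the 6636 tiles of the whole series that were lower in brain than in both. ACAAAG, a core motif bound by Sox factors, was found on either strand in 8.28% of the 290 tiles and 7.69% of all, and the E-box CAGCTG in 4.83% and 5.38%. Neither of these was found in the 5 tiles. Tiles of the 10 genes with all 3 means under 0.1, 69 in number, had a median of 8 CpGs, and the remaining 221 a median of 2.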

How the data were processed

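RRBS libraries were prepared, sequenced and mapped by a service company with proprietary methods, and the submitters' processing notes name mm10, Bismark and methylKit. The authors combined CpG calls into 100 bp tiles with methylKit 0.99.2, required over 10 reads in all replicates and coverage below the 99.8th percentile, and deposited a methylation fraction from 0 to 1 per tile and library, on autosomes and without read counts. Depth per library is therefore unknown. Tables held 819713 liver, 942643 brain and 930358 heart tiles. Columns were grouped by tissue table.

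The 10 genes, marker lists and rules were chosen with earlier results of these data known. Gene models were RefSeq curated transcripts (GRCm38.p6), and the reference sequence is of the same build: 99.88% of shared tiles held a CpG, against 55.54% after a move of 100000 bp. The middle of a tile set its position. Promoters ran from 1000 bp upstream to 500 bp downstream of any curated start, and bodies over the rest of the gene (at least 3 tiles). Levels without read counts do not allow the methylKit test, so fractions were fitted with limma 3.58.1 in R 4.3.3, all 24 libraries together, and p-values were adjusted by Benjamini-Hochberg over all tiles or all genes. Calls needed an adjusted p no higher than 0.01 with tissue means at least 0.3 apart per tile or 0.1 per gene level. The p-values rest on 1 spread between mice within a tissue, pooled over the 3 tissues, and take no account of shared animals. In the tiles of the 10 genes the median SD was 0.0668 in brain, 0.0426 in liver and 0.0388 in heart. The pooled spread can therefore understate that of brain, and the p-values of brain comparisons in these genes can be too small. Named tiles were the one with the largest difference of each gene, if at least 0.3, and those called for brain against both other tissues. Further tiles in the text were chosen after their levels were seen, to describe runs of neighbouring tiles. In each list the 2 genes with most such tiles were named, ties included. Marker lists covered hepatocytes, cardiomyocytes, neurons, astrocytes, microglia, endothelial and Schwann cells. Motifs were counted within a tile on both strands. The fits were tested on simulated data in which a tile had the same spread in every tissue. That test cannot show how the larger spread of brain affects the calls.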

Additional observations from a re-analysis of the deposited data

Results flagged for a closer look

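In 54 groups of 6 libraries tested for a library far from the rest (brain and heart; liver has too many libraries for this test), 5 were marked by Dixon's test, where chance marks about 1 in 20, and all 5 were in heart. The highest heart library of the Sox10 tile 2560 bp upstream was at 0.374, against 0.239 to 0.266 in the other 5. For the Mbp body level the highest heart library was at 0.6354. The lowest was at 0.8243 for the Mog body level, at 0.0167 for the Olig2 body level and at 0.0523 for the Sox10 promoter level.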

How the results depend on the processing

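Depth limits single levels by an unknown amount, since no read counts were given. No paired analysis was possible because the columns carry no mouse number. Of 238 recomputed counts, 225 lay within 1.5 times the value reported. The 13 others came from the minimum difference or from dropping the upstream stretch. With a minimum of 0.2, 84 tiles were called between liver and brain (34 at 0.3), 47 between brain and heart (11), 42 between liver and heart (14), 28 as lower in brain than in both (5) and 321 of the other myelin genes (172), and 1 promoter and 1 body level were called. With 0.4 the counts were 12, 2, 5, 1 and 82. With gene bodies alone, 3 tiles were lower in brain than in both. Arcsine transformed levels, tissue medians, tiles with 2 or more CpGs, tiles of only 2 tables, other promoter limits and, added after seeing the data, promoters of the outermost start alone moved no count by over 1.5 times. Leaving out each library in turn gave 28 to 50 tiles between liver and brain, 10 to 14 between brain and heart, 13 to 15 between liver and heart, 5 to 7 lower in brain than in both (50 to 65 by adjusted p alone), 168 to 189 of the other myelin genes, 3 to 4 promoter levels and 3 body levels.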
